A study of Mus musculus with 12 samples.

Results

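Lcn2 and 5 genes of its receptor and of the acute phase response were followed in mouse back skin by RNA sequencing. The 6 genes, Lcn2, Slc22a17, Saa1, Saa2, Saa3 and Hp, were taken by their symbols from a table of 18505 genes, and all 6 passed the filter on low values that 15288 genes passed. Wild-type male BALB/c mice, some weeks old, had their backs shaved and were treated daily until day 10, and each group held 4 samples. The control group received petroleum jelly (the labels call it "white space handling"). The IMQ + NS group received cream with imiquimod (IMQ), a Toll-like receptor 7 agonist that brings on psoriasis-like lesions, and then a dressing with saline (NS). The IMQ + BZLF group received the same cream and then a dressing with Banzhilian formula (BZLF), a herbal preparation, at a dose that the labels do not give. No dressing is described for the control group, so cream and dressing cannot be told apart in differences from control skin. Each sample is a whole piece of skin, so fewer cells of a type and less RNA per cell cannot be told apart. The labels do not say that the samples of a group came from separate mice, so the p-values measure the spread between these samples.

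Lipocalin 2, the product of Lcn2, is a secreted protein that binds the siderophores with which bacteria take up iron, and it is made by keratinocytes and neutrophils in inflamed skin. Slc22a17 encodes a receptor for it at the cell surface. Serum amyloid A proteins are acute phase proteins: Saa1 and Saa2 are best known from the liver, whereas Saa3 is made outside the liver by fat cells, macrophages and epithelia. Haptoglobin, encoded by Hp, binds free haemoglobin and is made by liver and fat. Interleukin 17, interleukin 1 and interleukin 6 raise many of these genes through NF-kappa B, C/EBP and STAT3 factors.

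On build GRCm38, Lcn2 lies on the minus strand of chromosome 2 (chr2:32384633-32388252) and Slc22a17 on the minus strand of chromosome 14 (chr14:54906304-54913132). Hp lies on the minus strand of chromosome 8 (chr8:109575128-109579172). The 3 Saa genes are neighbours on chromosome 7. Saa3 (chr7:46711998-46715700) and Saa1 (chr7:46740497-46742980) lie on the minus strand and Saa2 (chr7:46751790-46754313) on the plus strand, with Saa4 between Saa3 and Saa1.

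The coding sequences of the 3 Saa genes are shown because reads of close copies can be assigned to the wrong gene. All 3 hold 366 coding bases in the GENCODE transcripts. Bases 61 to 150 are given 5′ to 3′, and capitals mark the bases that differ from Saa1.
Saa1: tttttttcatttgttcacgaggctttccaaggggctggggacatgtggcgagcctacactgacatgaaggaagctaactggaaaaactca
Saa2: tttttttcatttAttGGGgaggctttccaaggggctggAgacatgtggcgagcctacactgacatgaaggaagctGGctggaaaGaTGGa
Saa3: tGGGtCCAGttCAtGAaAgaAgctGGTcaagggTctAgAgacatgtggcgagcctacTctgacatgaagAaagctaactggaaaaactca
This stretch was chosen as the 90 bases in which Saa1 and Saa2 differ most. In it Saa2 differed from Saa1 at 11 of 90 bases and Saa3 at 21. Over the whole coding sequence Saa1 and Saa2 were identical at 348 of 366 bases (95.1%), Saa1 and Saa3 at 73.0%, and Saa2 and Saa3 at 71.3%. No stretch of 150 bases of the Saa1 transcript was found in that of Saa2, whereas 74 of its 560 stretches of 50 bases (13.2%) were. How the authors assigned reads that match both genes is not stated, so the split between Saa1 and Saa2 is uncertain, and their sum was also tested.

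The bases before the start sites are shown because Lcn2 and the 3 Saa genes moved together in these samples. They come from RefSeq on GRCm38.p6, which gave the 250 bases before the start for 5 of the genes, and capitals mark matches to TTNNGNAA on either strand, a core of C/EBP sites. The starts are those of RefSeq, and for Lcn2 the 250 bases (chr2:32387740-32387989) lie inside the GENCODE span of the gene given above. Those of Saa2 and Saa3 reach into theirs in part, outside the stretch shown. Lcn2 is shown for the bases around its match (chr2:32387937-32387966, minus strand), and the Saa genes from base 250 to base 61 before the start: Saa1 (chr7:46743041-46743230, minus strand), Saa2 (chr7:46751583-46751772, plus strand) and Saa3 (chr7:46715737-46715926, minus strand).
Lcn2: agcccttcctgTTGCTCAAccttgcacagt
Saa1: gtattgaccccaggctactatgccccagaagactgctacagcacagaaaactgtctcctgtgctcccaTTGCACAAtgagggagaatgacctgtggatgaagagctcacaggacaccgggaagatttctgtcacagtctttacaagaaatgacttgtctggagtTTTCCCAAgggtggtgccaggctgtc
Saa2: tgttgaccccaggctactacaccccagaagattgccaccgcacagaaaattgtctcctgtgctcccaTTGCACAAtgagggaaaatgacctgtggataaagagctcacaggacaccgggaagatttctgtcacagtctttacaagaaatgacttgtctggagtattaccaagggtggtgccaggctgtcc
Saa3: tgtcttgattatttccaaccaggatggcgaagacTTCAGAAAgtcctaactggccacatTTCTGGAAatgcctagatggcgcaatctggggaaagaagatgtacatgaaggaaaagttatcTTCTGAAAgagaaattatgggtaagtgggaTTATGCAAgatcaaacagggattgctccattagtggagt
Over the 250 bases before the start, Saa1 and Saa2 shared an unbroken run of 65 bases, which lies in the stretch shown, and the longest run that Saa3 shared with either was 8 bases, which lies outside it. The C/EBP letters occurred 1 time before Lcn2, 2 times before Saa1, 1 time before Saa2 and 4 times before Saa3, and they were not found before Slc22a17. They are common, with a match in 36.8% of 32851 promoters of the same length. The letters of an NF-kappa B site (GGGA, any 4 bases, then CC) occurred in 17.6% of promoters and those of a STAT site (TTCNNNGAA) in 7.02%, and neither was in the 250 bases before any of the 5 genes. A match is a string of letters and not a shown binding site.

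The authors deposited FPKM, fragments scaled to transcript length and library size, so levels of different genes are compared per length. Differences were tested with limma on log2(FPKM + 0.1), and every log2 fold change (log2FC, with its standard error, SE) below is on this scale, which understates changes of genes near 0. A gene counted as called where its adjusted p (Benjamini-Hochberg over all 15288 genes) was below 0.05 and its log2FC was above 1 or below -1. The exact permutation test of 4 against 4 samples (two-sided) cannot give a p below 0.0286, the value reached where 2 groups do not overlap. IMQ + NS samples serve both as the treated group against the control group and as the reference for BZLF, so those comparisons are not independent. The study singled out Lcn2, and Saa1 as one of its partners, from these samples, so their change is not independent evidence of a direction.

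Psoriasis-like lesions held far more Lcn2 and Saa transcript than control skin, less Slc22a17, and an amount of Hp that overlapped with the control group. Of the 6 genes, 4 were called higher and 1 lower in IMQ + NS samples, where 11.4% of all tested genes were called higher and 11.0% lower. Without that limit on the fold change the same counts were found, against 29.0% and 27.1% of all genes. The groups did not overlap for 5 of the 6 genes and for 49.4% of all genes. The median log2FC was 4.43 over the 6 genes and 0.0535 over all genes.

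After BZLF, Lcn2, Saa1, Saa2, Saa3 and Hp were called lower than in IMQ + NS samples. These were 5 of the 6 genes, beside 2.2% of all tested genes called lower and 0.321% called higher, with none of the 6 genes higher. Without the limit on the fold change the same 5 were lower, beside 5.17% of all genes, and 1.28% of all genes were higher. The groups did not overlap for 5 of the 6 genes, compared with 15.2% of all genes. The median log2FC was -3.62 over the 6 genes and -0.0231 over all genes.

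BZLF-treated skin was not the same as control skin for every gene. Saa1 and Saa3 were called higher in the IMQ + BZLF group than in the control group, 2 of the 6 genes, where 9.65% of all genes were called higher and 10.1% lower. Without the limit on the fold change Slc22a17 and Hp were also lower, so that 2 genes were higher and 2 lower, where 23.8% of all genes were higher and 29.2% lower. The groups did not overlap for Slc22a17, Saa3 and Hp, 3 of the 6 genes, and for 47.5% of all genes.

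**Figure D1:**
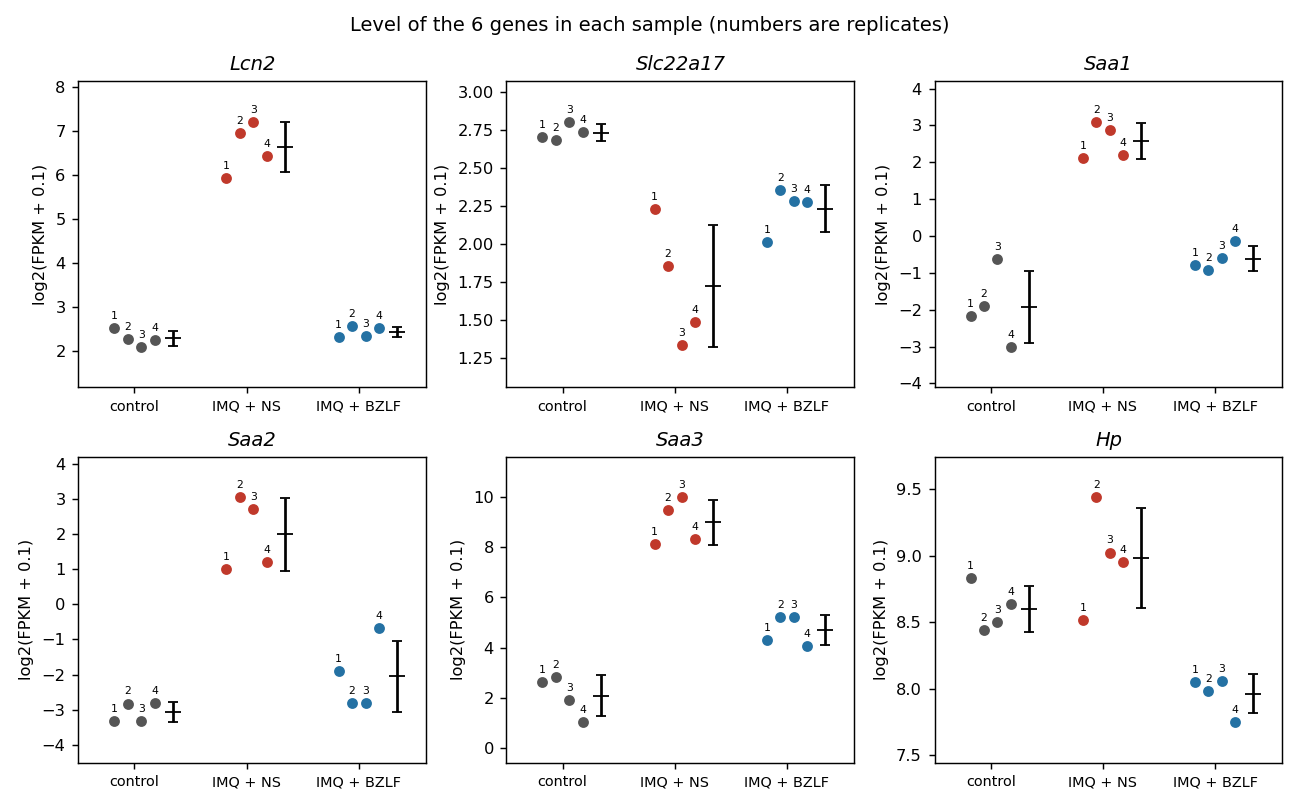
Level of the 6 genes in each of the 12 samples as log2(FPKM + 0.1), with dots numbered by replicate and the bar giving the mean ± SD of 4 samples on that scale. Lcn2 of the IMQ + BZLF samples overlaps with that of the control samples, whereas Saa3 lies between the other groups. The vertical scale differs between genes.

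Lcn2 was expressed at 5.63, 4.69, 4.17 and 4.65 FPKM in control replicates 1 to 4. In the IMQ + NS group it stood at 60.5, 124.1, 148.3 and 86.2 FPKM. In the IMQ + BZLF group it stood at 4.86, 5.77, 4.93 and 5.58 FPKM. Every IMQ + NS sample was thus above every other sample, and the control and IMQ + BZLF samples overlapped. The mean was 4.79 ± 0.614 FPKM (SD, n = 4) in control skin, 104.8 ± 39.1 in IMQ + NS skin and 5.29 ± 0.456 after BZLF, which is 21.9-fold higher in lesions and then 19.8-fold lower after BZLF. The log2FC was 4.35 (SE 0.26, adjusted p = 4.51e-06, limma) in IMQ + NS against control and -4.21 (SE 0.24, adjusted p = 8.26e-05) after BZLF. The fall of Lcn2 after BZLF was the 21st deepest of the 15288 genes, and its rise was the 251st highest.

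Against control skin, Lcn2 in the IMQ + BZLF group had a log2FC of 0.14 (adjusted p = 0.329, limma), with a 95% interval from -0.13 to 0.42. A level between 0.916 and 1.33 times that of the control group is therefore compatible with these 8 samples. By rank of mean FPKM among all 18505 genes, Lcn2 went from 8469th in control skin to 658th in IMQ + NS and 8249th in IMQ + BZLF.

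Slc22a17, the receptor gene, ran the other way. Its level was 6.40, 6.33, 6.89 and 6.58 FPKM in the control group, 4.60, 3.52, 2.43 and 2.70 in the IMQ + NS group and 3.93, 5.03, 4.78 and 4.75 in the IMQ + BZLF group. All control samples were above all others, and IMQ + BZLF replicate 1 fell below IMQ + NS replicate 1. The mean fell from 6.55 ± 0.249 to 3.31 ± 0.974 FPKM (SD, n = 4) in lesions, a log2FC of -1.0 (SE 0.18, adjusted p = 0.00191, limma). This size lies at the limit of the call, which was lost without control replicate 3 (-0.98), without IMQ + NS replicate 3 (-0.87) or without IMQ + NS replicate 4 (-0.92).

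The mean of Slc22a17 in the IMQ + BZLF group was 4.62 ± 0.476 FPKM. Against IMQ + NS its log2FC was 0.51 (95% interval 0.09 to 0.92, adjusted p = 0.146, limma), which did not pass the test. Against control skin it was -0.50 (SE 0.10, adjusted p = 0.00387, limma) without overlap, under the limit on the fold change. The ratio of Lcn2 to its receptor gene therefore moved further than Lcn2 alone. The log2 ratio was -0.45 in control skin, 4.90 in lesions and 0.19 after BZLF. The 3 differences, of 5.35, -4.71 and 0.64, had an adjusted p of 0.0476 each (exact permutation test, adjusted over 15 ratio tests), from the smallest p that 4 against 4 samples can give.

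On the log2(FPKM + 0.1) scale Saa3 had the largest log2FC of the 6 genes between control skin and lesions, whereas the ratio of means was higher for Saa2, which was near 0 in control skin. It was expressed at 6.03, 6.97, 3.66 and 1.94 FPKM in control skin. In IMQ + NS samples it reached 282.6, 715.2, 1018 and 320.9 FPKM. In IMQ + BZLF samples it was 19.7, 37.5, 37.0 and 16.6 FPKM. No group overlapped with another, and the IMQ + BZLF samples lay between the other groups. The mean rose 126-fold, from 4.65 ± 2.28 to 584.1 ± 349 FPKM (SD, n = 4), a log2FC of 6.89 (SE 0.50, adjusted p = 1.61e-05, limma). With this rise Saa3 stood 149th of all 18505 genes by mean FPKM in IMQ + NS skin, after 8562nd in control skin.

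After BZLF the mean of Saa3 was 27.7 ± 11.1 FPKM, 21.1-fold lower than in IMQ + NS (log2FC -4.28, SE 0.44, adjusted p = 0.00151, limma). It remained 5.96-fold above control skin, with a log2FC of 2.61 (SE 0.43, adjusted p = 0.00128, limma). Lcn2 and Saa3 thus differed in where they ended. Within a sample, the log2 ratio of Lcn2 to Saa3 was 0.19 in control skin, -2.35 in IMQ + NS and -2.28 in IMQ + BZLF. It was lower than in control skin in both IMQ groups, by -2.54 and -2.46 (adjusted p = 0.0476 for both, exact permutation test), and between the IMQ groups it differed by 0.08 (adjusted p = 0.886, exact permutation test).

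Saa1 was near the limit of detection in control skin. Its level was 0.122, 0.170, 0.547 and 0.0250 FPKM in the control group, 4.25, 8.51, 7.27 and 4.51 in the IMQ + NS group and 0.476, 0.430, 0.566 and 0.807 in the IMQ + BZLF group. All IMQ + NS samples stood above all others, and control replicate 3 lay within the range of the IMQ + BZLF samples. The mean was 0.216 ± 0.229 FPKM (SD, n = 4) in control skin, 6.14 ± 2.09 in lesions and 0.570 ± 0.168 after BZLF. The log2FC of Saa1 was 4.50 (SE 0.47, adjusted p = 9.84e-05, limma) in lesions and -3.19 (SE 0.25, adjusted p = 5.3e-04) after BZLF.

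Against control skin, Saa1 in the IMQ + BZLF group had a log2FC of 1.31 (SE 0.45, adjusted p = 0.0374, limma) although the samples overlapped (p = 0.0857, exact permutation test). The adjusted p of Saa1 rose to 0.0567 with the replicate number as a block. The call was lost without control replicate 1, without control replicate 4 and without any one of the 4 IMQ + BZLF samples, with log2FC values from 0.95 to 1.41 and an adjusted p of up to 0.0925. Saa1 fell less far than Lcn2 after BZLF, since the log2 ratio of Lcn2 to Saa1 changed from 4.05 to 3.04 (difference -1.02, adjusted p = 0.0476, exact permutation test).

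Saa2 was listed at 0, 0.0411, 0 and 0.0423 FPKM in control replicates 1 to 4. In the IMQ + NS group it was 1.92, 8.20, 6.53 and 2.21 FPKM, and in the IMQ + BZLF group 0.169, 0.0427, 0.0416 and 0.521 FPKM. All IMQ + NS samples were above all others, and 2 of the IMQ + BZLF samples were at the level of the 2 control samples above 0. The mean was 4.72 ± 3.14 FPKM (SD, n = 4) in IMQ + NS and 0.194 ± 0.226 in IMQ + BZLF. The log2FC of Saa2 was 5.07 (SE 0.47, adjusted p = 5.12e-05, limma) in lesions and -4.05 (SE 0.60, adjusted p = 0.00718) after BZLF. Against control skin it was 1.02 in the IMQ + BZLF group (95% interval -0.05 to 2.09, adjusted p = 0.0964, limma), which did not pass the test.

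The low values of Saa2 show how few fragments lie behind them. Once the samples were scaled to a common depth, its values were whole multiples, within 0.166, of 0.0411 FPKM, which was taken as the value of 1 fragment. They then came to 0, 1, 0 and 1 fragments in the control group, 47, 191, 160 and 54 in IMQ + NS and 4, 1, 1 and 13 in IMQ + BZLF. The sums of 452 and 2 fragments gave a ratio of 226 of IMQ + NS to control, with a 95% interval from 62.2 to 1872 (exact, counting error only). In the same way Saa1 came to 35 fragments in the control group, 998 in IMQ + NS and 93 in IMQ + BZLF, within 0.242 of whole multiples. The log2FC of Saa2 in lesions accordingly ranged from 2.31 with a constant of 1 to 7.42 with a constant of 0.01 in place of 0.1. When Saa1 and Saa2 were summed, the log2FC of IMQ + BZLF against control was 1.46 (adjusted p = 0.0222, limma).

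Hp was the highest of the 6 genes in control skin and moved least in lesions. It was expressed at 455.5, 347.9, 361.7 and 398.6 FPKM in the control group, 366.9, 695.2, 520.9 and 495.4 in IMQ + NS and 265.4, 252.7, 266.5 and 214.6 in IMQ + BZLF. The control and IMQ + NS samples overlapped, because IMQ + NS replicate 1 lay within the control range, and all IMQ + BZLF samples lay below all others. The mean was 390.9 ± 48.1 FPKM (SD, n = 4) in control skin and 519.6 ± 135 in IMQ + NS, a log2FC of 0.38 (95% interval -0.03 to 0.79, adjusted p = 0.0999, limma), which did not pass the test.

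The mean of Hp in the IMQ + BZLF group was 249.8 ± 24.3 FPKM, 2.08-fold lower than in IMQ + NS, with a log2FC of -1.02 (SE 0.17, adjusted p = 0.0112, limma). This call also lay at the limit on the fold change and was lost when samples were scaled by median ratios (-0.97), to equal sums (-0.99) or by quantiles (-0.88), and also without IMQ + NS replicate 2 (-0.87) or with IMQ + BZLF replicate 4 left out (-0.95), while the adjusted p stayed at or below 0.0406 in all alternatives. Hp also lay below control skin, with a log2FC of -0.64 (SE 0.11, adjusted p = 0.00153, limma), which is under the limit.

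Adipocytes express Hp, and their markers were lower in both IMQ groups. The summed level of 10 adipocyte markers was 6283 to 14420 FPKM in control skin, 2719 to 4341 in IMQ + NS skin and 3795 to 4511 in IMQ + BZLF skin, and 7 of the 10 were called lower in IMQ + NS than in control skin. Between the IMQ groups limma called 0 of the 10, of which 6 had an unadjusted p below 0.05, and 8 of the 10 were fitted higher after BZLF, whereas Hp was lower. Adiponectin, Adipoq, stood at 382.1 ± 158.9, 105.2 ± 19.5 and 137.9 ± 7.78 FPKM (SD, n = 4) in the 3 groups. For comparison, 11.0% of all tested genes were called lower in lesions, and 0.321% higher and 2.2% lower after BZLF. The part of adipocyte content in the level of Hp was not tested.

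**Figure D2:**
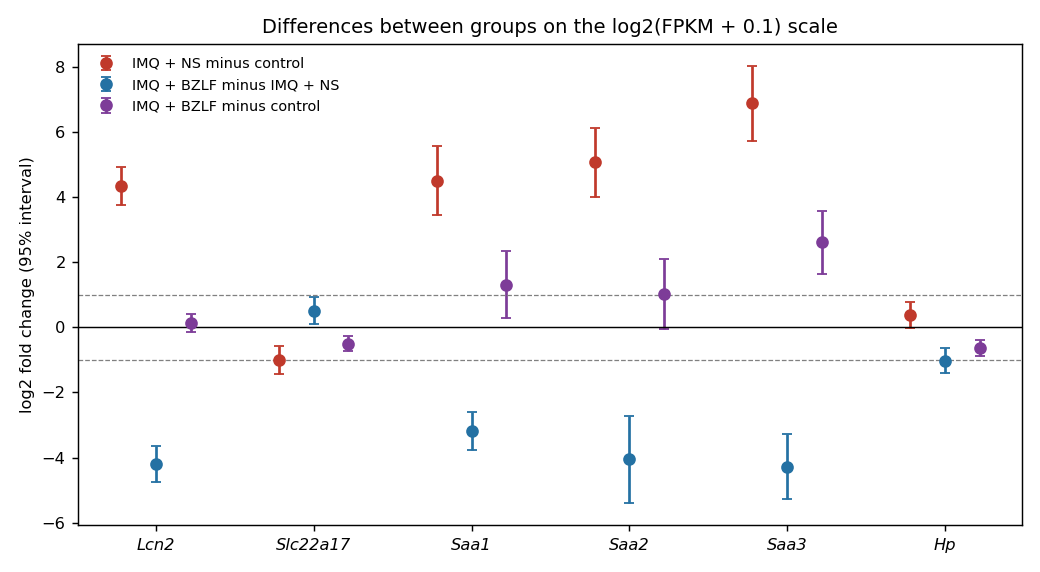
Log2 fold change of the 6 genes on the log2(FPKM + 0.1) scale in the 3 comparisons of 4 against 4 samples, with bars giving the 95% interval from limma and dashed lines at 1 and -1, the limits of a call. The interval of IMQ + BZLF against control spans 0 for Lcn2 (-0.13 to 0.42) and lies above 1 for Saa3 (1.64 to 3.58).

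Per length, the order of the levels changed between groups. In control skin Hp (390.9 FPKM) was followed by Slc22a17 (6.55), Lcn2 (4.79), Saa3 (4.65), Saa1 (0.216) and Saa2 (0.0208). The range of Saa3 there held those of Slc22a17 and Lcn2, and the samples of Saa1 and Saa2 overlapped. In IMQ + NS the order was Saa3 (584.1), Hp (519.6), Lcn2 (104.8), Saa1 (6.14), Saa2 (4.72) and Slc22a17 (3.31), with overlapping samples between Saa3 and Hp and among Saa1, Saa2 and Slc22a17. In IMQ + BZLF it was Hp (249.8), Saa3 (27.7), Lcn2 (5.29), Slc22a17 (4.62), Saa1 (0.570) and Saa2 (0.194). There the samples of Lcn2 and Slc22a17 overlapped, as did those of Saa1 and Saa2.

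The 4 IMQ + NS samples differed among themselves in the same direction for these genes. Replicates 2 and 3 held the highest values of Lcn2, Saa1, Saa2, Saa3 and Hp, followed by replicate 4 and then replicate 1. Slc22a17 was highest in replicate 1. The summed level of the neutrophil markers, nearly all from S100a8 and S100a9, was 3179, 5827, 9969 and 5125 FPKM in replicates 1 to 4. That of the hyperproliferative keratinocyte markers was 2365, 2572, 4232 and 3195 FPKM, so both sums were lowest in replicate 1 and highest in replicate 3. Single neutrophil markers differed from this order, with Ly6g at 1.12, 0.475, 1.41 and 0.426 FPKM and Mpo highest in replicate 1. No such shared order was seen in the IMQ + BZLF group, where replicates 2 and 3 were highest for Saa3 and replicate 4 for Saa1 and Saa2.

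**Figure D3:**
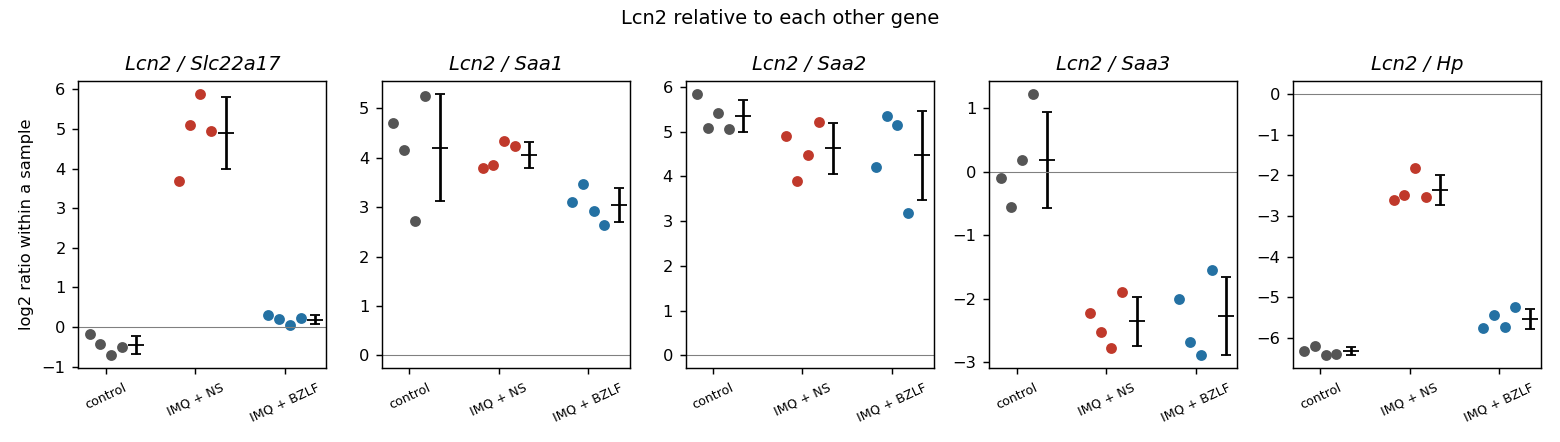
Log2 ratio of Lcn2 to each of the other 5 genes within each sample, from FPKM + 0.1, with bars giving the mean ± SD of 4 samples and the grey line at a ratio of 1. Lcn2 over Saa3 is lower in both IMQ groups (means of -2.35 and -2.28) than in control skin (0.19), whereas Lcn2 over Slc22a17 and over Hp is highest in IMQ + NS samples.

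The other ratios placed the remaining genes. Lcn2 over Hp had a log2 mean of -6.32 in control skin, -2.35 in IMQ + NS skin and -5.53 in IMQ + BZLF skin, and all 3 differences had an adjusted p of 0.0476 (exact permutation test). Lcn2 over Saa2 differed by -0.72 in lesions and by -0.15 after BZLF (adjusted p = 0.129 and 0.886, exact permutation test), and both signs depended on the constant added to the low Saa2 values. Lcn2 over Saa1 differed by -0.15 in lesions (adjusted p = 0.886, exact permutation test), which became 1.59 with a constant of 1.

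Among genes that the study linked to Lcn2, Mmp9 did not pass the test for a rise. Mmp9 encodes a matrix metalloproteinase that forms a complex with lipocalin 2. It was expressed at 6.68, 3.52, 6.52 and 5.03 FPKM in control, 3.87, 3.32, 11.1 and 6.83 in IMQ + NS and 1.02, 1.32, 0.770 and 1.41 in IMQ + BZLF samples. Control and IMQ + NS samples overlapped and all IMQ + BZLF samples lay below both. The log2FC of Mmp9 was 0.08 (SE 0.38, adjusted p = 0.862, limma) in lesions, -2.25 (SE 0.36, adjusted p = 0.00952) after BZLF and -2.16 (SE 0.25, adjusted p = 0.000263) against control skin. From Western blot and RT-PCR the study reported MMP-9 as raised in its imiquimod model and lowered by BZLF. Those are other measures than the FPKM values given here.

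Of the 10 genes in this group, which the study listed by a database score of interaction with lipocalin 2, 8 passed the filter. The study placed Mmp9, Lrp2, Timp1, Il17a and Saa1 among its differential genes, which came from these same samples. In lesions 3 were called higher (Saa1, Il17a and Timp1) and 2 lower (Slc22a17 and Mmp2). After BZLF 3 were lower (Saa1, Il17a and Mmp9) and none higher. The shares of all tested genes were 11.4% higher and 11.0% lower in lesions, and 0.321% and 2.2% after BZLF. Timp1, an inhibitor of metalloproteinases, had a log2FC of 1.22 in lesions (adjusted p = 0.00392, limma) and -0.71 after BZLF (adjusted p = 0.0794). Mmp2, a second gelatinase, had -1.11 (adjusted p = 0.00251) in lesions and -0.05 after BZLF (adjusted p = 0.898). Il6 had 0.74 and -0.46 (adjusted p = 0.132 and 0.512), and Il10 had -0.82 and -0.62 (adjusted p = 0.0147 and 0.211), neither of them called. Lrp2, which encodes megalin, a receptor for lipocalin 2 in kidney, had means from 0.0106 to 0.0973 FPKM in the 3 groups, and Mc4r was above 0 in only 1 of the 12 samples, so neither was tested.

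Several genes of the pathways upstream of Lcn2 and the Saa genes fell with BZLF. Of 27 genes listed for these pathways 24 were tested. In lesions 3 were called higher and 1 lower, and after BZLF 0 higher and 5 lower. The medians were 0.33 and -0.49 on the log2 scale. The list also holds receptors and inhibitors of these pathways, so the medians mix genes of opposite roles. Among all tested genes the called shares were 11.4% higher and 11.0% lower in lesions, and 0.321% and 2.2% after BZLF. Il17a, the cytokine interleukin 17A, was listed at 0 in all control and all IMQ + BZLF samples and at 0.574, 0.402, 1.08 and 0.809 FPKM in IMQ + NS samples. Il17f, a close relative that shares its receptor, had means of 0.00990 ± 0.0127, 0.782 ± 0.394 and 0.00964 ± 0.0124 FPKM (SD, n = 4) in the 3 groups, in the order control, IMQ + NS, IMQ + BZLF. Both were called higher in lesions and lower after BZLF, at levels that rest on few fragments.

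Il1b encodes interleukin 1 beta and stood at 5.67 ± 0.569 FPKM (SD, n = 4) in control skin, 28.5 ± 19.2 in IMQ + NS skin and 2.07 ± 0.666 in IMQ + BZLF skin. Its log2FC was 2.07 (adjusted p = 0.00267, limma) in lesions and -3.53 (adjusted p = 0.00348) after BZLF, and it ended below control skin (-1.45, adjusted p = 0.000623). Tnf was called lower after BZLF (-1.93, adjusted p = 0.0108) and was at -0.45 in lesions (adjusted p = 0.187, limma). Nfkbiz, the IkB zeta cofactor that interleukin 17 uses to raise Lcn2, had 0.98 in lesions (adjusted p = 0.0039), just under the limit, and -1.53 after BZLF (adjusted p = 0.00134), and it was chosen for naming after its values were seen. The transcription factor gene Cebpd was lower in lesions than in control skin (-1.18, adjusted p = 0.0146, limma). Cebpb (0.45 and -0.20) and Stat3 (0.36 and -0.65), chosen in the same way, were not called in lesions or after BZLF.

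Of 9 genes listed as receptors of serum amyloid A or as relatives of these, 8 were tested. Of these, 2 rose in lesions and fell after BZLF. These were Fpr1 and Fpr2, formyl peptide receptors of phagocytes. Of all tested genes 11.4% were called higher in lesions and 2.2% lower after BZLF. Fpr2 stood at 1.55 ± 0.618, 8.01 ± 3.05 and 0.946 ± 0.287 FPKM (SD, n = 4) in the 3 groups, in the order control, IMQ + NS, IMQ + BZLF, with log2FC values of 2.30 (adjusted p = 0.000672, limma) and -2.92 (adjusted p = 0.00151). Fpr1 had 2.94 and -1.91 (adjusted p = 0.000316 and 0.0136, limma). Cd36, a scavenger receptor that fat cells also carry, was lower in lesions (-1.16, adjusted p = 0.000924, limma).

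The acute phase genes beyond the 6 moved in both directions. Of 28 listed genes 18 were tested, with 2 higher and 4 lower in lesions and 1 higher and 3 lower after BZLF, and medians of -0.08 and -0.26 on the log2 scale. Over all tested genes 11.4% were called higher and 11.0% lower in lesions, and 0.321% and 2.2% after BZLF. Hpx, encoding the haem carrier haemopexin, moved like the Saa genes. It was 0.203, 0.321, 0.0173 and 0.0522 FPKM in control, 4.02, 10.4, 10.7 and 6.06 in IMQ + NS and 2.26, 2.15, 1.64 and 1.67 in IMQ + BZLF samples. The 3 groups did not overlap. Its log2FC values were 5.07 (SE 0.46, adjusted p = 5.03e-05, limma), -1.86 (SE 0.29, adjusted p = 0.00904) and, against control skin, 3.2 (SE 0.39, adjusted p = 0.000332).

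Other acute phase genes took varied courses. Of 3 tested genes that the acute phase lowers in liver, Rbp4 and Trf were lower in both IMQ groups than in control skin. Orm3, an orosomucoid gene, was lower in lesions (log2FC -2.40, adjusted p = 0.000588, limma) and higher after BZLF (1.44, adjusted p = 0.00922), at means of 0.842, 0.0659 and 0.349 FPKM. C3, the central complement component, was lower in lesions (-1.38, adjusted p = 0.00781) and at -0.28 after BZLF (adjusted p = 0.532, limma). Serpina3n, a protease inhibitor, followed Hp more closely: it stood at 80.4 ± 4.63, 124.6 ± 37.8 and 60.5 ± 10.5 FPKM (SD, n = 4), was not called in lesions (0.58, adjusted p = 0.0321, limma) and fell after BZLF (-1.01, adjusted p = 0.0274). Il1rn, the interleukin 1 receptor antagonist, was higher in lesions (1.64, adjusted p = 0.000242, limma) and had -0.52 after BZLF (adjusted p = 0.0397), under the limit. Serpina3m fell after BZLF (-1.41, adjusted p = 0.0432, limma) with overlapping samples.

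**Figure D4:**
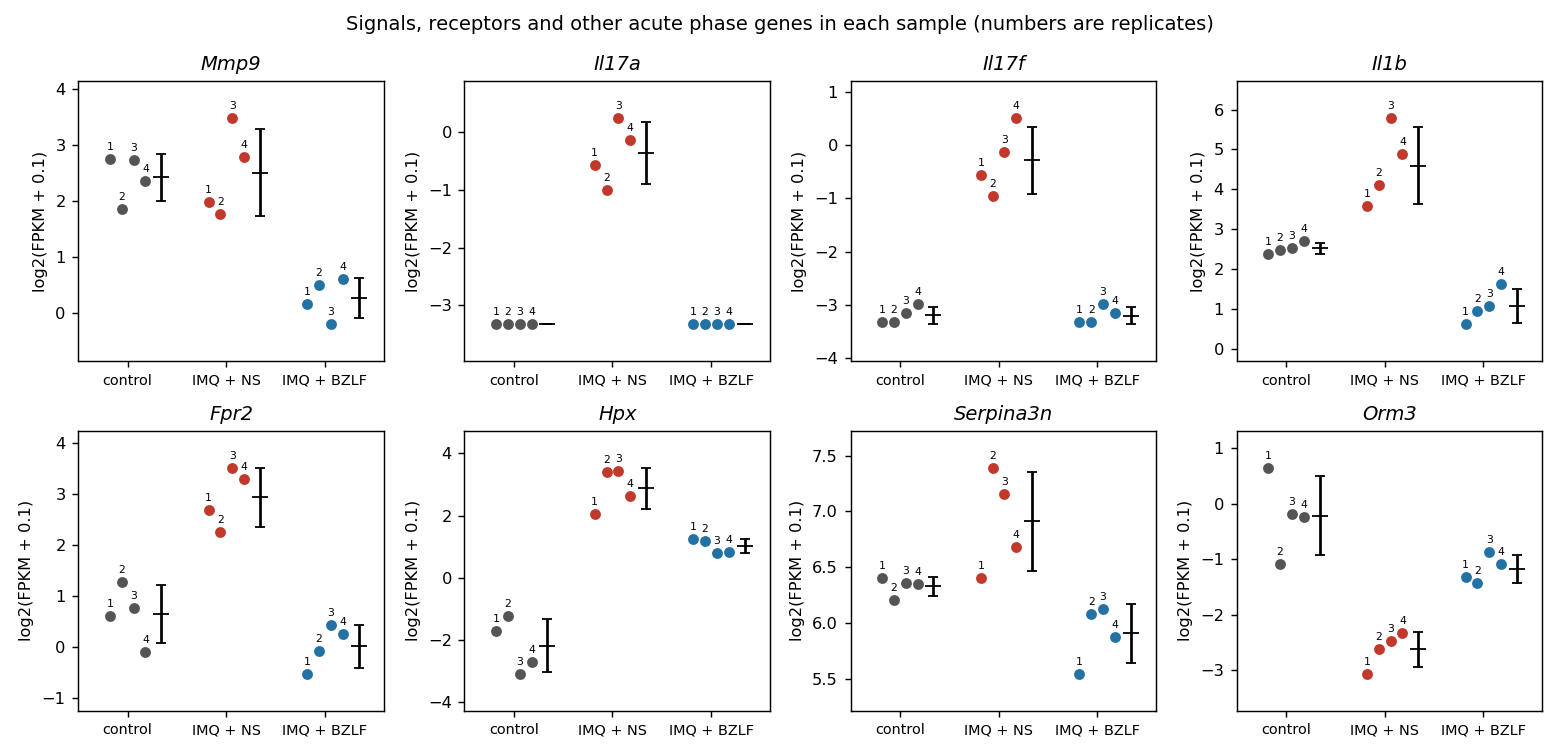
Levels of 8 genes around the Lcn2 and Saa response in each sample as log2(FPKM + 0.1), with dots numbered by replicate and the bar giving the mean ± SD of 4 samples on that scale. Mmp9 of IMQ + NS samples overlaps with that of the control samples, Hpx of IMQ + BZLF samples lies between the other groups, and Il17a is listed at 0 in all control and IMQ + BZLF samples. The vertical scale differs between genes.

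Genes that handle iron and haem gave a divided picture. Ltf, which encodes the iron-binding lactoferrin of neutrophil granules, moved with Lcn2, with log2FC values of 3.87 (adjusted p = 4.51e-06, limma) in lesions and -2.95 (adjusted p = 0.00512) after BZLF. Slc40a1, the iron exporter ferroportin, was higher in lesions (3.30, adjusted p = 0.000175, limma) and also higher in IMQ + BZLF than in control skin (3.63, adjusted p = 0.000173). Bdh2, linked to the making of a mammalian siderophore, was lower in lesions (-2.79, adjusted p = 1.42e-06, limma) and in IMQ + BZLF against control skin (-2.11, adjusted p = 1.45e-05). Cd163, the macrophage receptor for haptoglobin bound to haemoglobin, was lower than in control skin in both IMQ groups (-1.40 and -1.13, adjusted p = 0.00291 and 0.00192, limma). Of 11 tested iron genes 3 were higher and 2 lower in lesions, and of 10 haem genes 1 and 4, beside 11.4% and 11.0% of all tested genes.

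Relatives of Lcn2 and Slc22a17 were called in both directions. In lesions 11.4% of all tested genes were called higher and 11.0% lower, and the Slc22 counts are near these shares. Of 6 other lipocalin genes tested, 2 were higher (Ptgds and Ambp) and 2 lower (Rbp4 and C8g) in lesions, and limma called 0 after BZLF, or 1 lower at an unadjusted p. Ptgds, a prostaglandin synthase, had a log2FC of 2.96 (adjusted p = 0.00606, limma) in lesions, and Rbp4, the retinol carrier, of -2.50 (adjusted p = 2.5e-05). Ambp was near 0, at means of 0.0352 FPKM in control and 0.249 in IMQ + NS skin. Its samples overlapped (adjusted p = 0.0471, limma). Of 7 other Slc22 transporter genes tested, Slc22a23 was higher (1.22, adjusted p = 2.65e-05, limma) and Slc22a4 lower (-1.85, adjusted p = 0.000448) in lesions, and limma called 0 after BZLF, at an unadjusted p as well.

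Most neutrophil genes moved with Lcn2. Of 19 markers 18 were tested, with 14 higher and 2 lower in lesions and 1 higher and 14 lower after BZLF. The shares of all tested genes were 11.4% higher and 11.0% lower in lesions, and 0.321% and 2.2% after BZLF. Camp was called higher in lesions (2.86, adjusted p = 0.000138, limma) but was not called after BZLF (-0.4, adjusted p = 0.373). Their summed level was 63.9 to 91.5 FPKM in control skin, 3179 to 9969 in IMQ + NS skin and 81.1 to 108.2 in IMQ + BZLF skin, and most of it in IMQ + NS skin came from S100a8 and S100a9, which keratinocytes also make. Csf3r, the receptor for the granulocyte growth factor, stood at 2.88 ± 1.01, 14.8 ± 6.06 and 2.54 ± 0.526 FPKM (SD, n = 4). Mpo, the myeloperoxidase of neutrophil granules, went the other way (6.97 ± 1.51, 1.02 ± 0.248 and 2.13 ± 0.355 FPKM). Ly6g, a defining neutrophil marker, was at most 0.0273 FPKM in control samples and 0.426 to 1.41 FPKM in IMQ + NS samples. In IMQ + BZLF samples it was at 0.0275, 0.0556, 0 and 0.443 FPKM, and replicate 4 of these lay above IMQ + NS replicate 4. The part of neutrophil content in the levels of Lcn2 and the Saa genes was not tested.

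Keratinocyte markers also moved. For the counts below, 11.4% of all tested genes were called higher and 11.0% lower in lesions, and 0.321% and 2.2% after BZLF. In IMQ + BZLF against control skin 10.1% were called lower. All 5 markers of hyperproliferative keratinocytes were higher in lesions, 3 of them (Krt6a, Krt6b and Krt16) fell after BZLF, and their summed level was 193.3 to 639.3 FPKM in control skin, 2365 to 4232 in IMQ + NS skin and 1160 to 1411 in IMQ + BZLF skin. Of 10 general keratinocyte markers 7 were higher in lesions and 1 fell after BZLF, which was Krt14. Their part in the results was likewise not tested. Of 10 macrophage markers, limma called 0 higher and 1 lower in lesions and 0 higher and 1 lower after BZLF, with the same counts at an unadjusted p. With no fold limit 9 had an unadjusted p below 0.05 in lesions, with 3 of the 10 fitted higher and 7 lower. Their summed level was 947.1 to 1333 FPKM in control, 702.5 to 960.4 in IMQ + NS and 484.8 to 679.1 in IMQ + BZLF skin. Adgre1 had 0.7 in lesions (adjusted p = 0.00165, limma) and -1.36 after BZLF (adjusted p = 0.00157). The part of macrophage content was not tested. Of 6 fibroblast markers 5 were lower than in control skin in both IMQ groups. Control replicate 2 held the highest hyperproliferative sum of the control group (639.3 FPKM), and without it no call of the 6 genes was lost.

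Liver is the main source of acute phase proteins in the body, and liver transcripts were low in these samples. Albumin, Alb, ranged from 1.46 to 8.0 FPKM over the 12 samples, with the highest value in control replicate 1, and the liver genes Ttr and Fgb did not exceed 0.0755 and 0.190 FPKM. The summed level of the 12 liver markers was 130.5 to 1122 FPKM in control skin, 62.5 to 113.6 in IMQ + NS skin and 95.4 to 119.0 in IMQ + BZLF skin. Most of it came from Cyp2e1, which was lower in both IMQ groups (log2FC values of -2.67 and -2.48, adjusted p = 0.00662 and 0.00891, limma). Within the IMQ + NS group the sum was lowest in replicate 1 (62.5 FPKM) and highest in replicate 3 (113.6 FPKM). Apoc3 and Fgb, named after their values were seen, were highest in IMQ + NS replicates 2 and 3, where the Saa genes were also highest. Within that group Ahsg and Apoa1 were also highest in these replicates, at low levels. Alb was not, at 1.82, 2.84, 1.80 and 1.85 FPKM in IMQ + NS replicates 1 to 4, nor was Apoa2, at 0.133, 0.531, 0.319 and 0.320 FPKM. Apoc3, an apolipoprotein gene, was at 0, 0.385, 0.433 and 0.0334 FPKM in IMQ + NS replicates 1 to 4. It was at most 0.173 FPKM in control skin, and at 0.0345, 0, 0.238 and 0.360 FPKM in IMQ + BZLF replicates 1 to 4. Fgb was at 0, 0.153, 0.190 and 0 FPKM in IMQ + NS replicates 1 to 4. It was at most 0.0734 FPKM in control skin and at most 0.0151 FPKM in IMQ + BZLF skin. The part of liver transcripts in the Saa levels was not tested. Pancreas transcripts were uneven, with a summed level from 2.10 to 232.6 FPKM and overlap between all groups. The pancreas sum was 193.2, 212.9, 214.6 and 20.2 FPKM in control replicates 1 to 4. In IMQ + BZLF replicates 1 to 4 it was close to these, at 183.0, 203.9, 202.1 and 19.3 FPKM. The seminal vesicle sum stood out only in replicate 2 of these groups (39.4 and 38.2 FPKM), and the kidney sum only in replicate 1 (5.89 and 4.18 FPKM). The source of these transcripts was not tested. Limma called 0 of the pancreas and 0 of the seminal vesicle genes in the 3 comparisons, at an unadjusted p as well, and 1 of the 2 tested kidney genes, Cubn, which was lower in lesions (-1.31).

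The genes most like each of the 6 were found by Pearson's r of log2(FPKM + 0.1) over the 12 samples among the 12657 genes whose mean reached 1 FPKM. These values describe the shared differences between 3 groups and carry no test. Lcn2 was closest to S100a9 (0.992), S100a8 (0.978), Serpinb3d (0.975), Zc3h12a (0.975) and Gk (0.973). S100a8 and S100a9 encode calprotectin, and Zc3h12a encodes an RNase that limits inflammatory mRNA. Zc3h12a stood at 5.73 ± 1.31, 22.5 ± 3.2 and 6.31 ± 0.347 FPKM (SD, n = 4) in the 3 groups, in the order control, IMQ + NS, IMQ + BZLF, and its IMQ + BZLF and control samples overlapped, as those of Lcn2 did.

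Saa3 was closest to Chil1 (0.984), Slc37a2 (0.983) and Lce3b (0.982). Chil1, a chitinase-like protein, stood at 2.29 ± 0.836, 104.1 ± 25 and 7.31 ± 2.35 FPKM (SD, n = 4), with the IMQ + BZLF samples between the other groups as for Saa3. Saa1 was closest to Tmem125 (0.979), Sprr2b (0.972) and S100a8 (0.970), and Saa2 was close to Krt16 (0.964) and Rab22a (0.963). Slc22a17 was closest to Serpina3j (0.977), Serpina3b (0.975) and Ccl27a (0.971), of which Ccl27a encodes a chemokine of resting keratinocytes. Hp was closest to Dazap2 (0.916), Serpina3n (0.907) and Diaph1 (0.905), with lower values of r than the other 5 genes reached. Between Lcn2 and the others r was 0.925 for Saa1, 0.954 for Saa2, 0.925 for Saa3, 0.718 for Hp and -0.814 for Slc22a17.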

How the data were processed

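RNA of 12 mouse skin samples was sequenced. The labels name TRIzol, a VAHTS Universal V6 kit, build mm10 and fastp, HISAT2, HTSeq and R 3.2.0, whereas the study's methods name mirVana, a stranded ribosomal depletion kit, Bowtie2 and eXpress, and which of them made the table is not stated. The authors deposited FPKM per gene and sample, with no pooling. The FPKM of a sample summed to between 444660 and 506622, with 16649 to 16941 genes above 0. Read totals were not used here, and depth was compared from the table alone: the value of 1 fragment, from the steps between low values, was 0.975 to 1.04 times that of control replicate 1. Of 11596 low values 76.4% lay within 0.05 of a whole multiple, too few for a count test, and the counting intervals for Saa1 and Saa2 cover counting error only.

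Genes whose mean reached 0.1 FPKM were tested on log2(FPKM + 0.1) with limma 3.58.1 (R 4.3.3, trended variances), with a separate fit for each pair of groups, and single values by exact permutation tests (SciPy 1.17.1, Python 3.11.15). The scripts were tested on simulated data. The 6 genes, the 19 other gene lists and the tests were chosen with earlier results of these data known. Besides the 6 genes, the text names the study's Lcn2 partners, at most 4 called genes per list and comparison with the largest change, and the 5 genes most like Lcn2 and 3 most like each other gene. A gene that this rule names is not reported here. Exceptions, among them genes named to check a tissue, were chosen after their values were seen. Alternatives were other constants (0.01 and 1), filters, scalings, fits and left-out samples. Further alternatives, no limit on the fold change and the sum of Saa1 and Saa2, were chosen after seeing the data. Coordinates come from GENCODE M21 on GRCm38, and the promoter table, RefSeq on GRCm38.p6, held 5 of the 6 genes.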

Additional observations from a re-analysis of the deposited data

How the results depend on the processing

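The direction of all 18 differences of single genes was kept in every alternative, and 362 of their 384 alternative values stayed on the same side of the call. Leaving out each sample in turn gave ranges of log2 fold change of -1.17 to -0.87 for Slc22a17 in IMQ + NS against control, -1.18 to -0.87 for Hp in IMQ + BZLF against IMQ + NS, and 0.95 to 1.74 for Saa1 in IMQ + BZLF against control. With 1 added, Slc22a17 was at -0.83 in lesions and Saa1 at 0.38 in IMQ + BZLF against control. Saa1 in that comparison was also not called with 0.01 added (1.94), with no filter (1.31) or with the replicate number as a block (1.31). Hp after BZLF was at -0.97 with median ratio scaling, -0.99 with equal sums and -0.88 with quantile normalization. With no limit on the fold change, Slc22a17 (-0.50) and Hp (-0.64) were called in IMQ + BZLF against control, as was Saa2 there when summed with Saa1 (1.46). The ratio of Lcn2 to Saa2 changed to -3.04 with 0.01 added and to 1.81 with 1 added in lesions, and to 0.71 and -1.90 after BZLF, and that of Lcn2 to Saa1 to 1.59 with 1 added in lesions. The cause of these changes was not tested, beyond the low values to which the constant is added.

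Over all genes, 1 added left 1168 higher and 1023 lower in lesions (1740 and 1678 as reported), 17 and 188 after BZLF (49 and 336), and 979 and 865 in IMQ + BZLF against control (1475 and 1542). No limit on the fold change gave 4427 and 4142, 195 and 791, and 3640 and 4458, and an unadjusted p gave 88 higher after BZLF. Leaving out 1 sample gave 19 (without IMQ + BZLF replicate 2) to 78 (without IMQ + BZLF replicate 1) higher genes after BZLF. Rescaling to equal sums moved the median of all genes in lesions from 0.0535 to -0.0736, and quantile normalization to -0.0709. Over all genes, same-numbered samples correlated at -0.152 to 0.26, so the numbers were not taken as pairs in the main fits. The pancreas, kidney and seminal vesicle sums did follow the replicate number in the control and IMQ + BZLF groups. What the numbers stand for is not stated, and their part in the results was not tested. With the replicate number as a block, no other call of the 6 genes changed. Of the list counts 1174 stayed within 1.5 times and 80 moved. Depth limits mainly Saa1 and Saa2, which rest on few fragments in control and IMQ + BZLF samples.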
